A study of Homo sapiens with 6 samples.

Results

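The genes examined are 37 genes of endoplasmic reticulum (ER) stress and protein folding, chosen by name, out of 58024 genes in the deposited RNA-Seq table. All 37 were found, with 1 row each, and all 37 passed the filter on low values (a mean of at least 0.1 FPKM, mapped fragments normalised to transcript length and library size). By role, 9 are sensors and transcription factors, 9 are chaperones and cochaperones, 6 are disulfide isomerases and lectin chaperones, 10 act in ER-associated degradation (ERAD) and 3 are translocon or other ER membrane proteins. C4-2B parental cells (3 libraries) were compared with C4-2B enzalutamide resistant cells (3 libraries). C4-2B is an LNCaP-derived human prostate cancer line that was obtained through castrated nude mice, and enzalutamide is an antiandrogen drug. The resistant cells came from a stepwise selection with enzalutamide between 1 and 20 µM that lasted 6 months or longer, and the survivors were pooled and held in 5 µM of the drug, and the parental cells were passaged in dimethyl sulfoxide (1% in the series' design text, while the study's methods set a lower ceiling for the vehicle). The extraction protocol names an exposure to 10 µM enzalutamide in wording that can be read as covering both groups. All cells grew in RPMI medium with 10% serum, and nothing states that the libraries of a group came from separate cultures, so that the p values measure the spread between these libraries, which may be technical.

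Secreted and membrane proteins enter the ER through the SEC61 translocon and are folded there by HSPA5 (BiP), HSP90B1 (GRP94), the protein disulfide isomerases and the lectins calnexin and calreticulin. When unfolded proteins accumulate, the sensors ERN1 (IRE1α), EIF2AK3 (PERK) and ATF6 start the unfolded protein response, in which IRE1α splices the XBP1 mRNA, PERK slows translation and raises ATF4 and DDIT3 (CHOP), and ATF6 is cleaved into a transcription factor. Proteins that fail to fold are returned to the cytosol by ERAD, which is built around the ligase SYVN1 (HRD1) and its partner SEL1L. Prostate luminal cells are secretory and hold a large ER.

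The values per library summed to between 792975 and 870110 FPKM, and 2 short structural RNAs took different shares of these sums in the groups. RMRP made up 18.4% to 21.5% of the parental and 11.4% to 12.6% of the resistant sums. RPPH1 was at 0 in all parental libraries and made up 10.7% to 11.6% of the resistant sums. With the libraries scaled to the same protein-coding sum, 35 of the 37 genes kept their call in the test described below. The part of these RNAs in the results was otherwise not tested. The table holds no read counts, so that depth is unknown and no counting interval was possible. Markers of prostate luminal cells were present in every library, with a sum over 8 genes of 4086 to 4845 FPKM in parental and 974 to 1040.1 FPKM in resistant libraries, where 6 of the 8 were lower and 1 higher by the test described below. A list of 6 neuroendocrine markers summed to 1.20 to 2.82 FPKM in parental and 60.6 to 66.6 FPKM in resistant libraries. Of these, 4 genes were higher, mainly SYP and CHGB, while CHGA and SCG2 had resistant means of only 0.563 and 1.01 FPKM. NCAM1 went from a mean of 0.334 to 0.124 FPKM and did not pass the test. INSM1 was below the filter, and none of the 6 was at 0 in all libraries. Stromal markers summed to 9.37 to 15.5 FPKM over all libraries with 3 of 6 higher and 1 lower, and no leukocyte or endothelial marker was above 1.14 FPKM in any library, with CD3E and KDR at 0 in all. The part of these shifts in the results below was not tested. In bulk RNA, fewer cells with a gene on and less of its RNA per cell cannot be told apart.

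ER stress elements are known in the promoters of such genes, namely ERSE, to which ATF6 binds together with NF-Y, and the shorter ERSE-II. Promoter windows from RefSeq (GRCh38.p14; 250 bases before to 50 bases after a gene's start) were at hand for 34 of the 37 genes. ERSE was searched as CCAAT, 9 bases of any kind and CCACG, and ERSE-II as ATTGG, 1 base of any kind and CCACG, on both strands and without mismatches. ERSE was found in 7 of the 34 genes (20.6%), and in 25 of all 27305 genes with a window (0.0916%) or 27 of all 35116 windows (0.0769%), since a gene can have several windows. ERSE-II was found in 3 of the 34 genes (8.82%), and in 19 of all genes (0.0696%) or 19 of all windows (0.0541%). These 10 genes are shown because they carry the elements by which the unfolded protein response is best known, and their RNA differed in direction and size between the cells. Each stretch below is written 5′ to 3′ on the gene's strand, with the match in capitals and 12 bases on either side. A match that begins with CGTGG reads the element on the other strand. The ERSE stretches and the ERSE-II stretches follow, with their position and the place of the match relative to the RefSeq start.
HSPA5, chr9:125241379-125241421, minus strand, bases -66 to -48: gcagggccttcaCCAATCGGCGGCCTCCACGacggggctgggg
XBP1, chr22:28800591-28800633, minus strand, bases -52 to -34: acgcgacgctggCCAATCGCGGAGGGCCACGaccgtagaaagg
CALR, chr19:12938372-12938414, plus strand, bases -225 to -207: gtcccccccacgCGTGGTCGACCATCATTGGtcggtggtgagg
HSP90B1, chr12:103930309-103930351, plus strand, bases -89 to -71: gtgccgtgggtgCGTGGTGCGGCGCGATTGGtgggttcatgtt
PDIA6, chr2:10812841-10812883, minus strand, bases -86 to -68: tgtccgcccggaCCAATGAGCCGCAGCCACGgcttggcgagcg
CANX, chr5:179698766-179698808, plus strand, bases -151 to -133: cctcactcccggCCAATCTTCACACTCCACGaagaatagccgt
CRELD2, chr22:49918542-49918584, plus strand, bases -80 to -62: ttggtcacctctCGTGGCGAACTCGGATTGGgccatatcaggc
HYOU1, chr11:119057262-119057296, minus strand, bases -79 to -69: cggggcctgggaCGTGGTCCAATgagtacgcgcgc
HERPUD1, chr16:56932013-56932047, plus strand, bases -117 to -107: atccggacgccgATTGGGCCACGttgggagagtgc
SDF2L1, chr22:21642102-21642136, plus strand, bases -188 to -178: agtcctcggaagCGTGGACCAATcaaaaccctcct

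HSP90B1 and HYOU1 each held 2 matches in their window. CANX has 4 windows from different starts. The same CANX match lies at bases -151 to -133, -9 to 9 or -189 to -171, depending on the start. HSPA5, the gene with the largest decrease among these 10, held 1 exact ERSE, and its 250 bases before the start (chr9:125241344-125241593, minus strand) show the surroundings of that match, again with the match in capitals.
HSPA5 upstream: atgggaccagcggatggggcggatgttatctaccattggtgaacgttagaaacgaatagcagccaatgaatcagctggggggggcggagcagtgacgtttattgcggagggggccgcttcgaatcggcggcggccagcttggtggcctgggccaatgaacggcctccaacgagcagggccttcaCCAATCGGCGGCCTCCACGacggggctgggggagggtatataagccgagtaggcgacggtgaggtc

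Most ER stress and folding genes were lower in the enzalutamide resistant cells. Of the 37 genes, 22 fell, 8 rose and 7 did not pass the test (limma on log2 of FPKM + 0.1, Benjamini-Hochberg adjusted p below 0.05). Over all 24468 genes tested, 22.3% fell and 22.1% rose, which is 44.4% in either direction. The members lie high in expression, with 32 of them at a mean of 10 FPKM or more and 18 in the top 10% of genes tested, and among the 8936 genes at or above that level 31.6% fell and 25.2% rose, 56.7% in all. The share of members that fell was 59.5%, and the share that rose was 21.6%. The median log2 fold change of the 37 genes was −0.42, against −0.05 over all genes tested. Of all 37 genes, 9 passed the test and fell by 2-fold or more, and 3 passed and rose by 2-fold or more. Of all 24468 genes tested, 13.6% and 15.0% did so. The resistant values lay all below the parental values in 24 genes and all above them in 9, where all genes gave 28.1% and 26.6%, or 54.8% in either direction. With 3 libraries a group, the smallest p of an exact permutation test on any one gene is 0.1.

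**Figure D1:**
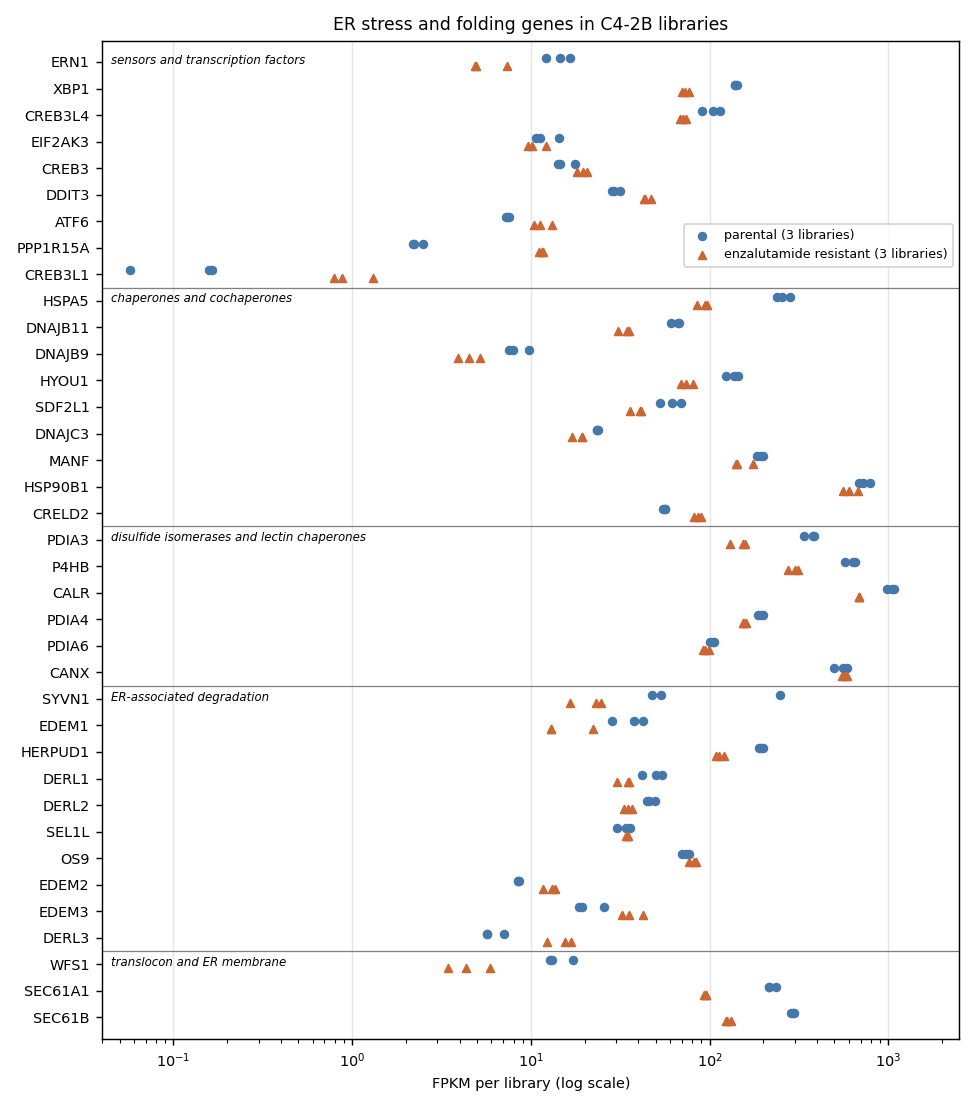
FPKM of the 37 genes in each of the 6 libraries (log axis), grouped by role and ordered by fold change, with parental libraries as circles and enzalutamide resistant libraries as triangles. The triangles lie left of the circles in 24 genes and right of them in 9, and 1 parental SYVN1 value stands apart at 248 FPKM.

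Summed over the 37 genes, the RNA amounted to 6086, 5526 and 5888 FPKM in parental and 3839, 3979 and 4012 FPKM in resistant cells, and the groups did not overlap. As a share of all protein-coding FPKM this was 0.960% to 1.00% in parental and 0.664% to 0.689% in resistant cells. The parental sum was 1.48 times the resistant sum over all roles, 1.30 times for the sensors and transcription factors, 1.37 times for the chaperones, 1.47 times for the isomerases and lectins, 1.46 times for ERAD and 2.33 times for the translocon and membrane group. The ERAD sums were 724, 510 and 521 FPKM in parental cells, where the first holds the SYVN1 value that stands apart. The 6 isomerases and lectins had the largest sums, with 2681 to 2996 FPKM in parental and 1924 to 1983 FPKM in resistant libraries.

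**Figure D2:**
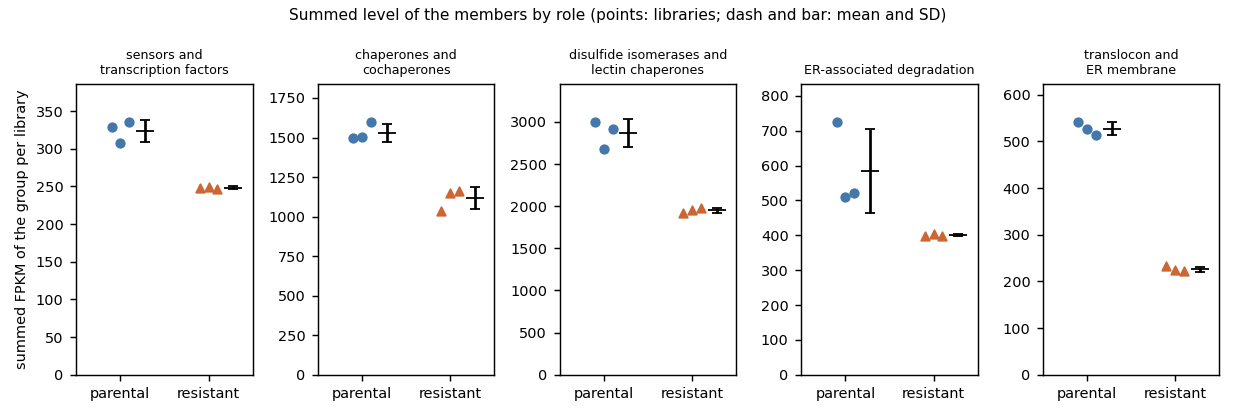
Summed FPKM of the genes of each role per library, with circles for parental and triangles for resistant libraries and the mean ± SD (n = 3) beside them, on axes that start at 0. In every role the resistant points lie below the parental points, and the high parental point for ER-associated degradation is the library with a SYVN1 value of 248 FPKM.

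The sensors and transcription factors changed in both directions, with 4 higher (44.4%), 3 lower (33.3%) and 2 that did not pass the test. Over all genes tested, 22.1% rose and 22.3% fell. ERN1, the gene of the IRE1α kinase and nuclease (chromosome 17, 64039080 to 64130819, GRCh38), was at 16.5, 14.5 and 12.2 FPKM in parental and 7.35, 4.91 and 4.86 FPKM in resistant libraries. All resistant values lay below the lowest parental value, and the gene fell by 1.34 log2 units (SE 0.21, limma adjusted p = 0.00271). XBP1, whose mRNA is the substrate of IRE1α, was at 138, 139 and 142 FPKM in parental and 73.1, 76.6 and 69.7 FPKM in resistant cells. It fell by 0.93 log2 units (SE 0.06, limma adjusted p = 9.78e-05), with little spread in either group. These are values per gene, which do not separate spliced from unspliced XBP1 mRNA.

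ATF6 went the other way, with 7.26, 7.52 and 7.34 FPKM in parental and 10.4, 11.2 and 13.1 FPKM in resistant libraries. The groups did not overlap, and the log2 fold change was 0.63 (SE 0.13, limma adjusted p = 0.00738). EIF2AK3, the gene of the PERK kinase, was at 14.3, 10.7 and 11.2 FPKM in parental and at 12.1, 9.63 and 10.1 FPKM in resistant cells. Its groups overlapped, and its log2 difference of −0.18 had a 95% interval from −0.56 to 0.20 (limma adjusted p = 0.396). Of the 3 stress sensors, therefore, ERN1 was lower, ATF6 was higher and EIF2AK3 did not pass the test.

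PPP1R15A, known as GADD34, directs a phosphatase to eIF2α and so restores translation after PERK has slowed it. It was at 2.18, 2.23 and 2.5 FPKM in parental and 11.1, 11.7 and 11.5 FPKM in resistant libraries, which is 4.97 times the parental mean and a log2 fold change of 2.27 (SE 0.13, limma adjusted p = 5.90e-05). DDIT3, the CHOP transcription factor, was at 29.2, 28.6 and 31.5 FPKM in parental and 47.0, 43.2 and 43.0 FPKM in resistant cells. It rose by 0.58 log2 units (SE 0.08, limma adjusted p = 0.00170), and both genes were higher in every resistant library than in any parental library. Of the exonic bases of DDIT3, 27.2% are shared with MARS1 on the opposite strand, which was at 623 to 786 FPKM in parental and 446 to 593 FPKM in resistant cells. The library protocol names a stranded kit beside another TruSeq kit, and whether the strand was used in the estimates is not stated.

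The CREB3 family codes for transcription factors that sit in the ER membrane and are released by cleavage in the Golgi. CREB3L4, which is prominent in prostate epithelium, was at 105, 90.4 and 114 FPKM in parental and 68.4, 70.7 and 74.0 FPKM in resistant libraries. It fell by 0.53 log2 units (SE 0.10, limma adjusted p = 0.00572), without overlap. CREB3L1 was near the filter in parental cells, with 0.0568, 0.164 and 0.158 FPKM, and reached 0.879, 1.31 and 0.789 FPKM in resistant cells. Its log2 fold change was 2.28 (SE 0.41, limma adjusted p = 0.00499) and ranged from 0.81 to 2.97 over the alternatives, as the pseudocount sets the weight of so low a parental level. CREB3 was at 17.6, 14.1 and 14.6 FPKM in parental and 18.2, 20.6 and 19.6 FPKM in resistant libraries. The difference of 0.34 log2 units (95% interval 0.05 to 0.62) did not pass the test (limma adjusted p = 0.0584), although its groups did not overlap. CREB3 passed under 5 of 15 alternatives, among them all 3 other scalings, and when parental replicate 0 was left out (0.43 log2 units, limma adjusted p = 0.0231).

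Chaperones and cochaperones of the ER lumen were mainly lower, with 7 of 9 that fell (77.8%), 1 that rose (11.1%) and 1 that did not pass. Over all genes at 10 FPKM or more, 31.6% fell and 25.2% rose. HSPA5, the HSP70 chaperone BiP that binds nascent chains and keeps the sensors inactive (chromosome 9, 125234853 to 125241382), was at 256, 237 and 282 FPKM in parental and at 85.5, 96.5 and 94.2 FPKM in resistant libraries. Every resistant library was far below every parental library, and HSPA5 fell by 1.49 log2 units (SE 0.09, limma adjusted p = 5.98e-05), which makes the parental mean 2.81 times the resistant mean. HSP90B1, the HSP90 chaperone of the ER, was at 685, 724 and 785 FPKM in parental and at 560, 606 and 674 FPKM in resistant cells. The lowest parental value was close to the highest resistant value, and the log2 difference of −0.26 (95% interval −0.48 to −0.03) did not pass the test (limma adjusted p = 0.0629). It passed as lower under 1 of 15 alternatives, quantile normalization (limma adjusted p = 0.0484). Both genes hold an exact ERSE in their promoter windows, as printed above. That HSPA5 and HSP90B1 differ in their response was not tested.

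DNAJB11, an HSP40 cochaperone that hands substrates to BiP, was at 66.9, 67.7 and 61.0 FPKM in parental and 30.7, 35.6 and 34.4 FPKM in resistant libraries. It fell by 0.96 log2 units (SE 0.09, limma adjusted p = 3.23e-04). DNAJB9, a cochaperone known to restrain IRE1α, was at 9.71, 7.97 and 7.58 FPKM in parental and 3.92, 4.49 and 5.18 FPKM in resistant cells. This was a decrease by 0.88 log2 units (SE 0.17, limma adjusted p = 0.00667). HYOU1, the nucleotide exchange factor of BiP also called ORP150, was at 137, 123 and 144 FPKM in parental and 69.2, 80.6 and 73.7 FPKM in resistant libraries. It fell by 0.85 log2 units (SE 0.09, limma adjusted p = 5.97e-04), and none of these cochaperones overlapped between the groups.

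The other chaperone genes moved less. SDF2L1, a partner of DNAJB11, fell by 0.63 log2 units, from between 52.9 and 69.2 FPKM to between 35.7 and 41.3 FPKM. DNAJC3 (p58IPK) fell by 0.34 log2 units, and MANF, a secreted cofactor of BiP, fell by 0.33 log2 units. The MANF call held in 6 of 15 alternatives and was lost when any single library other than resistant replicate 1 was left out (limma adjusted p from 0.0677 to 0.115). CRELD2, an ER stress-inducible protein with isomerase activity and an ERSE in its promoter window, was the exception in this group. It was at 56.2, 54.6 and 56.1 FPKM in parental and at 86.7, 89.1 and 81.8 FPKM in resistant cells, and rose by 0.62 log2 units (SE 0.07, limma adjusted p = 5.23e-04).

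**Figure D3:**
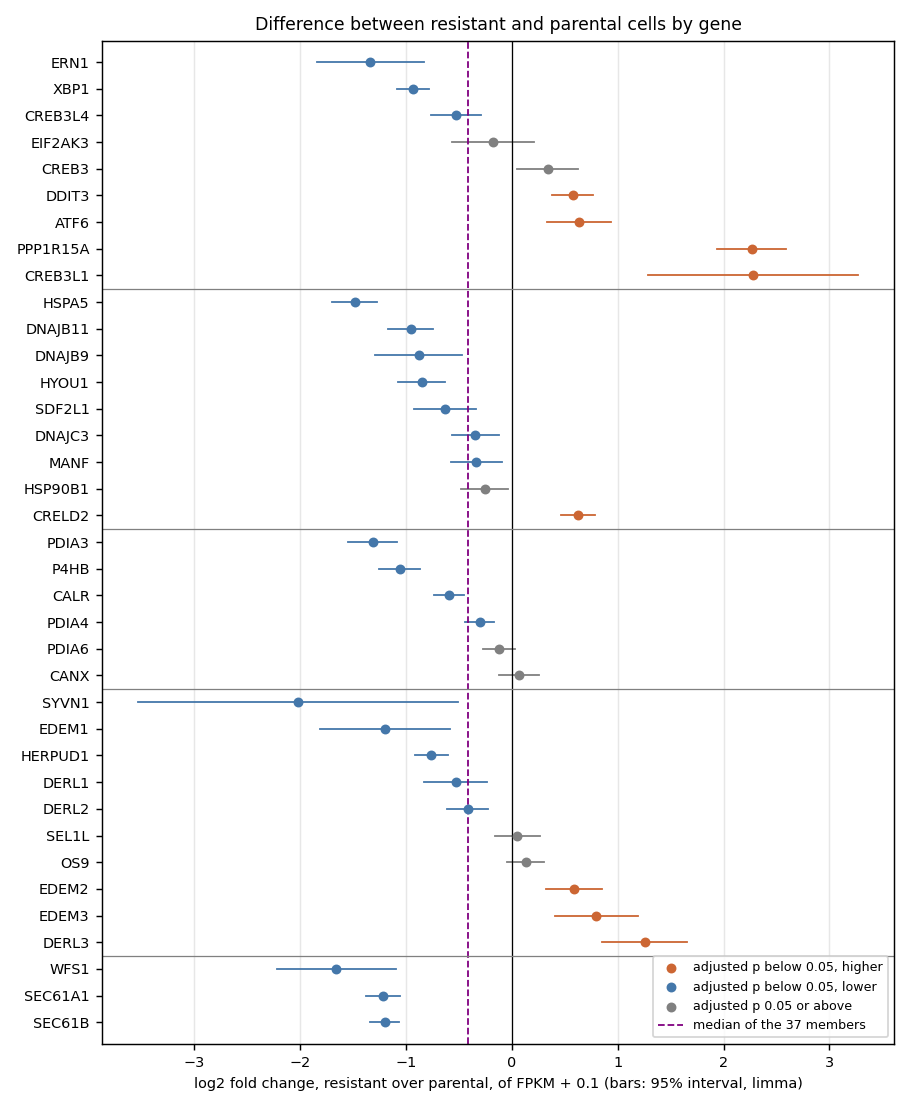
Log2 fold change of resistant over parental cells for each of the 37 genes, with its 95% interval from limma, grouped by role in the order of the plot of values. Points left of 0 are lower in the resistant cells, and the dashed line is the median of −0.42, with 22 genes past the threshold on the left and 8 on the right.

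Of the disulfide isomerases and lectin chaperones, 4 of 6 fell (66.7%) and none rose, where genes at 10 FPKM or more gave 31.6% and 25.2%. PDIA3 (ERp57), which forms disulfide bonds in glycoproteins held by calnexin and calreticulin, was at 382, 339 and 379 FPKM in parental and at 130, 158 and 155 FPKM in resistant libraries. It fell by 1.32 log2 units (SE 0.10, limma adjusted p = 1.35e-04), a parental mean 2.49 times the resistant mean. P4HB, the prototype protein disulfide isomerase and a subunit of prolyl 4-hydroxylase, was at 655, 572 and 631 FPKM in parental and 313, 276 and 301 FPKM in resistant cells. It fell by 1.06 log2 units (SE 0.08, limma adjusted p = 1.51e-04).

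CALR, the luminal lectin calreticulin (chromosome 19, 12938578 to 12944489), had the highest level of the 37 genes in either group, with 1076, 981 and 1052 FPKM in parental and 682, 686 and 688 FPKM in resistant libraries. It fell by 0.59 log2 units (SE 0.06, limma adjusted p = 4.54e-04). CANX, its membrane-bound counterpart calnexin, was at 584, 497 and 560 FPKM in parental and 551, 576 and 591 FPKM in resistant cells. The CANX groups overlapped, and the log2 difference of 0.069 had a 95% interval from −0.12 to 0.26 (limma adjusted p = 0.503). PDIA4 (ERp72) fell by 0.31 log2 units (SE 0.06, limma adjusted p = 0.00558), from 193, 187 and 198 FPKM to 153, 159 and 156 FPKM. PDIA6 was between 101 and 106 FPKM in parental and between 92.2 and 99.1 FPKM in resistant libraries, a log2 difference of −0.12 that did not pass the test (95% interval −0.27 to 0.03, limma adjusted p = 0.156). PDIA6 shares 25.2% of its exonic bases with ATP6V1C2 on the opposite strand, which was at 0.144 FPKM or less in parental and at 5.11 to 8.83 FPKM in resistant cells.

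Genes of ER-associated degradation changed in both directions. Of the 10 genes, 5 fell (50.0%), 3 rose (30.0%) and 2 did not pass the test. Over all genes at 10 FPKM or more, 31.6% fell and 25.2% rose. The genes that rose include DERL3, whose value is uncertain, as described below. SYVN1, the ubiquitin ligase HRD1, was at 248, 47.6 and 53.8 FPKM in parental and at 24.6, 16.6 and 23.2 FPKM in resistant libraries. Parental replicate 0 stood far above the other parental libraries, while FAU and MRPL49, which share exonic bases with SYVN1 and its table locus, varied little between the parental libraries (1307 to 1389 and 79.0 to 84.5 FPKM). The SYVN1 decrease was by 2.02 log2 units (SE 0.63, limma adjusted p = 0.0396) with all libraries and by 1.25 log2 units (limma adjusted p = 0.0106) without parental replicate 0. The call held in 9 of 15 alternatives. The losses include those without parental replicate 2 or without any single resistant library (limma adjusted p from 0.0677 to 0.144). All resistant values stayed below all parental values. SEL1L, the partner of SYVN1, was at 34.0, 30.4 and 36.1 FPKM in parental and at 34.2, 34.5 and 35.0 FPKM in resistant cells. Its log2 difference of 0.049 had a 95% interval from −0.16 to 0.26 (limma adjusted p = 0.677).

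The EDEM proteins mark misfolded glycoproteins for degradation by trimming their mannoses. EDEM1 was at 37.9, 42.3 and 28.6 FPKM in parental and 13.0, 22.2 and 12.9 FPKM in resistant libraries. It fell by 1.20 log2 units (SE 0.25, limma adjusted p = 0.00969), a call that was just lost without resistant replicate 0 (limma adjusted p = 0.0560) or without resistant replicate 2 (limma adjusted p = 0.0513). EDEM3 rose by 0.80 log2 units (SE 0.16, limma adjusted p = 0.00819), from 25.7, 19.4 and 18.5 FPKM in parental to 32.5, 35.3 and 42.5 FPKM in resistant cells. EDEM2 rose by 0.59 log2 units, from between 8.46 and 8.58 FPKM to between 11.7 and 13.7 FPKM. Thus 1 EDEM gene was lower and the other two were higher, in each case without overlap between the groups.

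The derlins are membrane proteins through which ERAD substrates leave the ER. DERL1 fell by 0.53 log2 units and DERL2 by 0.42 log2 units, from between 41.9 and 54.1 and between 44.8 and 49.3 FPKM in parental to between 30.2 and 35.6 and between 33.0 and 36.8 FPKM in resistant cells. The DERL1 call was just lost without parental replicate 2 (limma adjusted p = 0.0545) or without resistant replicate 2 (limma adjusted p = 0.0509). DERL3, the least abundant derlin, was at 5.68, 5.70 and 7.06 FPKM in parental and at 12.3, 15.5 and 16.8 FPKM in resistant libraries. It rose by 1.26 log2 units (SE 0.17, limma adjusted p = 0.00137), but 77.0% of its exonic bases are shared with SMARCB1 on the opposite strand, which was at 51.0 to 84.8 FPKM over the 6 libraries, and its value is therefore uncertain. HERPUD1, a stress-inducible membrane protein that recruits the SYVN1 complex, was among the higher of these genes, with 189 to 198 FPKM in parental and 109 to 121 FPKM in resistant cells, and fell by 0.76 log2 units. OS9, a lectin that hands glycoproteins to SEL1L, was between 70.3 and 76.8 FPKM in parental and between 76.5 and 84.1 FPKM in resistant libraries and did not pass the test (log2 difference 0.13, 95% interval −0.04 to 0.30, limma adjusted p = 0.188). It passed as higher under the 3 other scalings, with 0.17 to 0.26 log2 units. OS9 shares 15.9% of its exonic bases with AGAP2-AS1 on the same strand.

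All 3 genes of the translocon and ER membrane group fell, each by 2-fold or more, as did 13.6% of all genes tested. SEC61A1, the channel subunit of the translocon (chromosome 3, 128051641 to 128071705), was at 236, 214 and 214 FPKM in parental and 95.5, 96.0 and 93.4 FPKM in resistant libraries. SEC61B, its small partner subunit, was at 292, 295 and 287 FPKM in parental and 131, 124 and 125 FPKM in resistant libraries. The decreases were by 1.22 log2 units for SEC61A1 (SE 0.07, limma adjusted p = 4.12e-05) and by 1.20 log2 units for SEC61B (SE 0.06, limma adjusted p = 2.60e-05), and SEC61B had the smallest adjusted p of the 37 genes. WFS1 (wolframin), an ER membrane glycoprotein involved in calcium handling and in the turnover of ATF6, was at 13.1, 17.2 and 12.7 FPKM in parental and 5.91, 3.42 and 4.32 FPKM in resistant cells. It fell by 1.66 log2 units (SE 0.23, limma adjusted p = 0.00175), without overlap between the groups.

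The genes with an element in their promoter window differed among themselves. Of the 10 genes printed above, HSPA5, XBP1, CALR, HYOU1, HERPUD1 and SDF2L1 fell, CRELD2 rose, and HSP90B1, PDIA6 and CANX did not pass the test. Their median log2 fold change was −0.61, with a range from −1.49 to 0.62. The 24 genes that had a window and no exact match had a median of −0.34, with 14 lower, 6 higher and 4 that did not pass. The share that fell was close in both sets, 60.0% with a match and 58.3% without. Of the 10 genes with a match 1 passed and fell by 2-fold or more, and of the 24 without a match 7 did. All genes tested gave 22.3% lower and 22.1% higher, and genes at 10 FPKM or more 31.6% and 25.2%. The difference between the sets was not tested. All 3 genes with ERSE-II were lower, and of the 7 with ERSE 3 were lower and 1 was higher. A core of the element bound by XBP1, TGACGTGG, was found in HYOU1 alone of the 34 genes (2.94%). It was found in 0.927% of all genes with a window or 0.729% of all windows. In HYOU1 it overlaps 1 of the ERSE-II matches. The ATF4 element searched as TGATGNAA was found in HERPUD1 alone (2.94%), and in 4.46% of all genes with a window or 3.62% of all windows. A match describes these letters in this window and says nothing of binding.

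**Figure D4:**
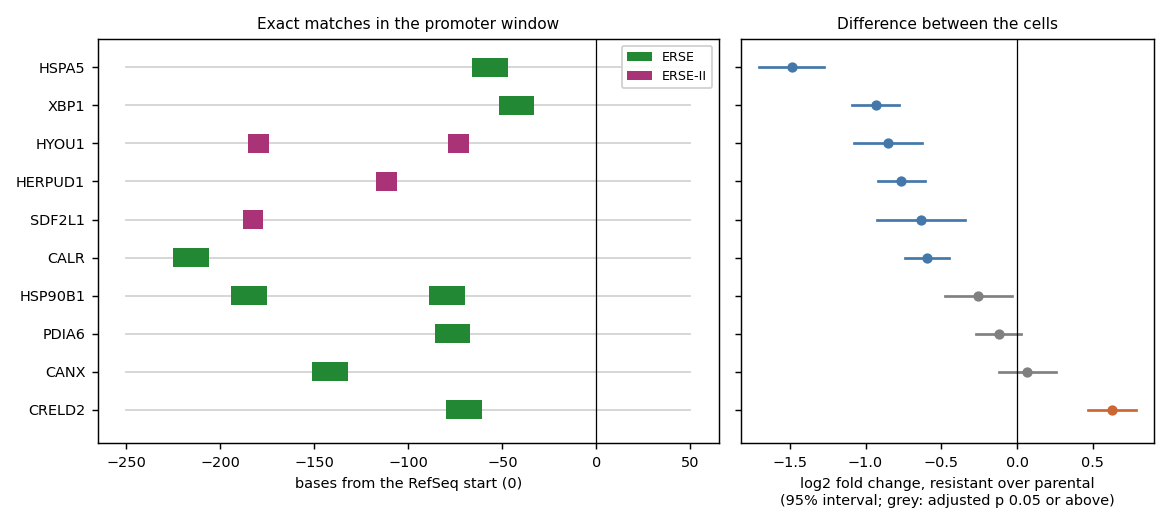
Left, positions of exact ERSE (green) and ERSE-II (purple) matches in the promoter windows of 10 genes, in bases from the RefSeq start. For CANX a single start of several is shown. Right, the log2 fold change of the same genes with its 95% interval, blue for lower, orange for higher and grey for not past the threshold. The genes are ordered from HSPA5 at −1.49 to CRELD2 at 0.62.

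Outside the 37 genes, 7 lists of 160 further genes of the same pathways were read, of which 156 were tested. Of these, 62 fell (39.7%), 31 rose (19.9%) and 63 did not pass the test, against 22.3% and 22.1% over all genes tested and 31.6% and 25.2% over genes at 10 FPKM or more. In the list of 15 targets of PERK, ATF4 and CHOP, 10 fell (66.7%) and 1 rose (6.67%), and the median log2 fold change was −0.55. DDIT4, an inhibitor of mTORC1, went from 271, 263 and 279 FPKM to 54.0, 44.2 and 57.8 FPKM and fell by 2.39 log2 units (limma adjusted p = 2.43e-05). STC2, a secreted glycoprotein, fell by 2.36 log2 units, and CHAC1, which degrades glutathione, fell by 2.01 log2 units. ATF4 itself was at 158, 154 and 148 FPKM in parental and 168, 193 and 171 FPKM in resistant cells and did not pass the test (log2 difference 0.21, 95% interval 0.03 to 0.39, limma adjusted p = 0.0627). These values stand beside the increase of DDIT3 and PPP1R15A, which belong to the same branch.

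Of 19 further regulators of the response, 17 were tested, 2 fell and 2 rose (11.8% each), and 13 did not pass the test. These shares are below those over all genes tested (22.3% and 22.1%). CREB3L2, a relative of CREB3L1, fell by 1.60 log2 units, from 28.6 ± 2.97 to 9.39 ± 1.10 FPKM (SD, n = 3). BAK1, a mitochondrial apoptosis effector, fell by 0.85 log2 units, and EIF2AK2, the kinase PKR, rose by 0.65 log2 units. Of 23 oxidative folding enzymes, 21 were tested, 12 fell (57.1%) and 4 rose (19.0%). AGR2, an isomerase of mucin-producing and prostate epithelium, went from 49.6, 45.6 and 64.5 FPKM to 1.58, 2.71 and 2.07 FPKM and fell by 4.60 log2 units (limma adjusted p = 3.07e-05). QSOX1, a sulfhydryl oxidase, fell by 2.53 and TXNDC11, a thioredoxin-domain protein of the ER, by 1.51 log2 units.

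Of 25 ER cochaperones and prolyl isomerases, 12 fell (48.0%) and 4 rose (16.0%). For this list and the next, all genes tested gave 22.3% and 22.1%, and genes at 10 FPKM or more 31.6% and 25.2%. PPIB, cyclophilin B, went from 910 ± 31.8 to 406 ± 13.8 FPKM (SD, n = 3). SIL1, a nucleotide exchange factor of BiP like HYOU1, fell by 1.74 log2 units, and DNAJC1, an HSP40 protein of the ER membrane, fell by 1.07 log2 units. Of 30 genes of the translocon, the signal peptidase and N-glycosylation, 12 fell (40.0%) and 5 rose (16.7%). SSR3, a translocon-associated subunit, fell by 1.16 and LMAN1, a cargo lectin, by 1.47 log2 units, whereas SEC11A, a catalytic subunit of the signal peptidase, rose by 1.16 log2 units, from 102, 95.3 and 104 FPKM to 217, 232 and 226 FPKM.

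Of 31 further ERAD genes, 10 fell (32.3%) and 8 rose (25.8%), close to the shares over genes at 10 FPKM or more, with a median log2 fold change of −0.04. VCP, the ATPase that pulls substrates from the membrane, fell by 0.69 log2 units, from 307 ± 12.5 to 190 ± 10.2 FPKM (SD, n = 3). AUP1, a lipid droplet protein of the SYVN1 complex, rose by 1.11 log2 units, and RNF185, an ER ubiquitin ligase, rose by 1.66 log2 units. Of 18 genes of ER-phagy and ER calcium, 5 fell (27.8%) and 7 rose (38.9%). All genes tested gave 22.3% and 22.1%, and genes at 10 FPKM or more 31.6% and 25.2%. ITPR2, a calcium release channel, rose from 2.90 ± 0.200 to 16.9 ± 3.78 FPKM, RETREG2, a receptor for ER-phagy, rose by 0.82 log2 units, and CCPG1, another such receptor, fell by 1.31 log2 units.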

How the data were processed

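RNA-Seq of 3 C4-2B parental and 3 C4-2B enzalutamide resistant libraries was analysed. Single-end reads of 50 bp were trimmed by the authors with TrimGalore, aligned with STAR to GRCh38 (GENCODE v25) and quantified with Cufflinks. The deposited table is taken to hold FPKM values per gene and library, since its header names no unit. The submitters' processing notes also name Trimmomatic 0.27, FastQC 0.10.1 and the mouse build mm10, while the gene identifiers and loci are human. Scaling between libraries is not given in the sources used here.

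Genes whose mean over the 6 libraries reached 0.1 FPKM were fitted with limma 3.58.1 (R 4.3.3; lmFit, eBayes with trend) on log2(FPKM + 0.1), and p values were Benjamini-Hochberg adjusted over the 24468 genes tested. Fold changes are on that scale. The fit was tested on simulated data. Alternatives changed the pseudocount, the filter, the scaling between libraries, the variance trend, the replicate block and the libraries included. Without read counts, depth per library is unknown. The groups came from the sample titles. The 37 members, the other lists and the rule for named genes were chosen with earlier results of these data known. By that rule, full values go to all sensors, to up to 4 called and non-overlapping genes of each other role with the largest change, and to HSPA5 and HSP90B1, the other members are accounted for by fold change and range, and ATF4 and the 3 genes with the smallest adjusted p of each other list are named. CRELD2, CANX and SEL1L were given full values outside the rule, after their values were seen. SEC61G was also named outside the rule, after its values were seen. Positions and exon overlaps were taken from GENCODE v44 (GRCh38), and promoter windows from RefSeq. Tables were handled with Python 3.11.15. Some marker genes are not reported here and were left out of the marker sums.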

Additional observations from a re-analysis of the deposited data

How the results depend on the processing

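Of the 30 genes past the threshold, 24 kept direction and call under all 15 alternatives tried for each gene (14 for CREB3L1, which a filter of 1 FPKM removes), and the exceptions were DNAJC3, MANF, PDIA4, SYVN1, EDEM1 and DERL1. With a required change of 2-fold, 9 members were lower and 3 higher, against 22 and 8, and 3320 of all genes were lower, against 5463. The median of the 37 genes was −0.32 both after quantile normalization and after median of ratios scaling, which shifted the median of all genes to −0.07 and 0.04. Restricted to the 22 members with at most 5% of their exonic bases in another gene, an alternative chosen after seeing the data, 13 were lower and 6 higher. With a library left out, 18 to 21 members were lower and 8 to 9 higher. The sign turned for PDIA6 after quantile normalization (0.045) and for SEL1L without parental replicate 1, where its values without single libraries lay between −0.018 and 0.11. DNAJC3 missed the threshold with the median of ratios scaling, without a variance trend and with the replicate block, and PDIA4 without a trend. Same-numbered libraries did not deviate together (Pearson r across genes from −0.0030 to 0.017). With the replicate block, 20 members were lower and 8 higher. Leaving out low values differently or changing the pseudocount left 21 or 22 members lower and 8 higher. Depth is unknown.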

Other observations

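Ratios between pairs of members were formed within each library, and the pairs were chosen after the values were seen. Such ratios do not depend on a scaling by 1 factor per library (quantile normalization can change them). They are given as values with no test. HSP90B1 over HSPA5 was 2.68, 3.05 and 2.78 in parental and 6.55, 6.28 and 7.15 in resistant libraries. CANX over CALR, the membrane-bound over the luminal lectin, was 0.543, 0.507 and 0.533 in parental and 0.808, 0.839 and 0.859 in resistant libraries. PDIA4 over PDIA3 went from 0.506, 0.553 and 0.523 to 1.18, 1.01 and 1.01, so that the isomerases were at about equal FPKM in the resistant cells. EDEM3 over EDEM1 was between 0.459 and 0.678 in parental and between 1.59 and 3.28 in resistant libraries.

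The translocon subunits kept their proportion, with SEC61A1 over SEC61B at 0.808, 0.726 and 0.746 in parental and 0.729, 0.773 and 0.750 in resistant libraries, and these ranges overlap. CRELD2 over SDF2L1, which both carry an ER stress element, was 0.910, 0.788 and 1.06 in parental and 2.10, 2.18 and 2.29 in resistant libraries. DDIT3 over XBP1 was 0.211, 0.206 and 0.222 in parental and 0.643, 0.564 and 0.617 in resistant libraries. The other ratios given here did not overlap between the groups. As the pairs were picked with their values known, this lack of overlap is not a further result.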
